A study of Mus musculus with 2 samples.

Results

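Mir126a, Mir126b, Mir143 and Mir145a are the microRNA loci best known from the cells of the blood vessel wall. They were chosen by gene identity, as the rows whose Ensembl identifier carries one of these names in GENCODE M21, and they are 4 of the 2202 microRNA loci counted. The rule uses no measured value, but the loci were chosen with earlier results of these data known. The libraries hold RNA shorter than 30 nt of left cerebral cortex from B6CASTF1/J mice, an F1 hybrid of C57BL/6J and a CAST strain. All animals were females of 14 days, and the labels name no treatment and no genetic alteration. There is 1 group of 2 libraries, called replicate 1 and replicate 2. Replicate 1 may be a pool, since its label mentions several females, whereas that of replicate 2 mentions 1. Both carry the same donor record, and p-values below therefore measure only the difference between these 2 libraries, which may be technical.

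MicroRNAs are cut from hairpin transcripts and, loaded into Argonaute, repress messenger RNAs that pair with their seed. The microRNA miR-126 is made in endothelial cells from an intron of Egfl7, a gene for a secreted endothelial factor. It is known to strengthen the response to vascular endothelial growth factor by repressing Spred1 and Pik3r2, inhibitors of that signal, and it represses the adhesion molecule Vcam1. The microRNAs miR-143 and miR-145 are made together in smooth muscle cells and pericytes, the mural cells of vessels, where serum response factor and myocardin drive them. They promote the contractile state of smooth muscle, among others through Klf4, Klf5 and Elk1.

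The sequences of the Mir126 locus are shown because its hairpins are read from opposite strands of the same place, so that only the strand of a read tells them apart. They were taken from RefSeq on GRCm38.p6, the assembly behind mm10, and the GENCODE M21 hairpins were identical to them. Capitals mark the mature microRNAs printed beneath them in the hairpins, and bases 2 to 8, the seed, in the mature microRNAs. In the Mir126a hairpin miR-126a-3p is marked, and mmu-miR-126a-5p, of the other arm, is not. RefSeq held a hairpin for 2 of the 4 loci.
Mir126a hairpin, plus strand, chr2:26591357-26591429: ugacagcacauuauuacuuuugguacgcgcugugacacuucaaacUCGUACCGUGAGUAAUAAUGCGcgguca
Mir126b hairpin, minus strand, chr2:26591363-26591420: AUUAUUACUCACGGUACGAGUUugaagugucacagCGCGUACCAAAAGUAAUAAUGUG
mmu-miR-126a-3p: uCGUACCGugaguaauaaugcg
mmu-miR-126b-5p: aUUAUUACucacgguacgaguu
mmu-miR-126b-3p: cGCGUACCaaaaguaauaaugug
All 58 bases of the Mir126b hairpin are the reverse complement of bases 7 to 64 of the 73 bases of Mir126a. The mature miR-126a-3p occupies bases 46 to 67 of its hairpin, and 19 of its bases lie opposite miR-126b-5p. Each of these 3 mature sequences was the sole bearer of its seed among the 1738 mature microRNAs of the RefSeq table. The Mir126b seeds therefore differ from that of miR-126a-3p.

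Mir126a lies on the plus strand of chromosome 2 (mm10), inside the protein-coding gene Egfl7, which spans 26580014 to 26593120 on the same strand. It is intronic in 8 of the 9 Egfl7 transcripts that cover it and exonic in 1 transcript with a retained intron. In 4 transcripts it sits in intron 7 of 9, which is 600 bases long. A transcript of Gm20532 also reads across it. Mir126b has the same position but lies antisense to Egfl7. The next microRNA locus on the chromosome, Mir6996, is 121237 bases from Mir126a and had 3 reads in replicate 1 and 2 in replicate 2.

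Mir143 (61649196 to 61649258) and Mir145a (61647825 to 61647894) lie on the minus strand of chromosome 18, 1301 bases apart, with Mir143 first in the direction of transcription. GENCODE M21 gives neither a host gene. The nearest other gene on their strand is the long non-coding Carmn, a smooth muscle gene whose annotated end is 366 bases before Mir143, and the nearest on the other strand is the long non-coding Bvht, 352 bases from Mir145a. Beyond the pair, the closest microRNA locus on the same strand was Mir378a, 251295 bases from Mir143. It had 4076 CPM in replicate 1 and 4759 CPM in replicate 2.

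**Figure D1:**
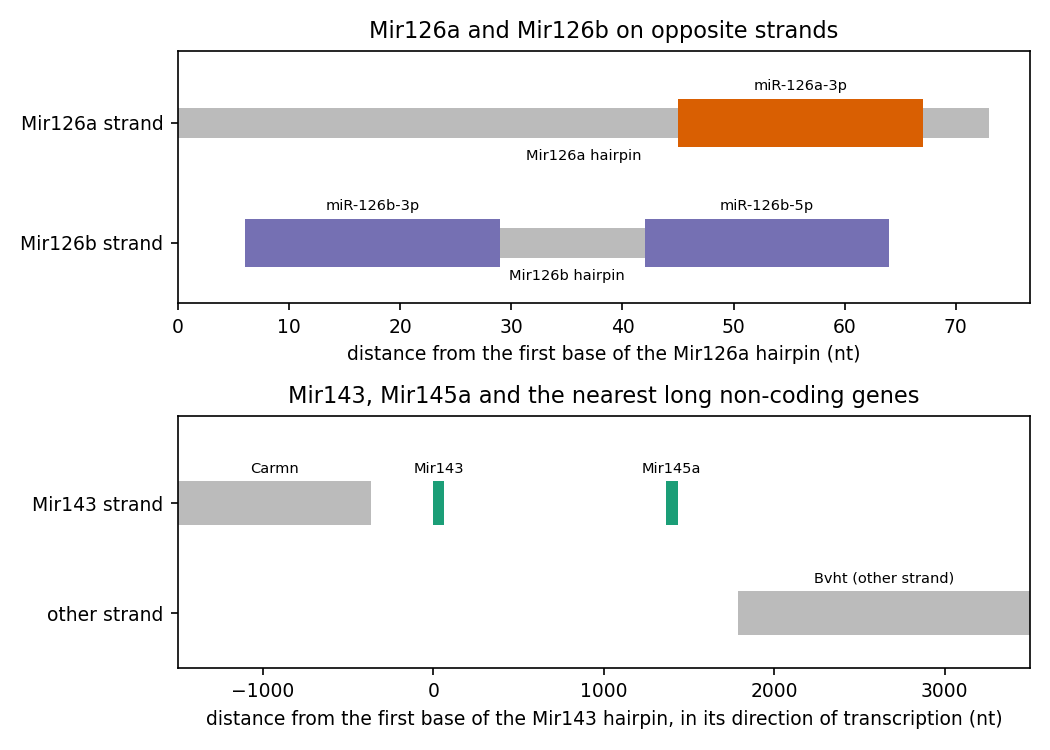
Maps of both places, with distance in nt from the first base of the Mir126a hairpin (top) and of the Mir143 hairpin in its direction of transcription (bottom). Grey bars in the top map are hairpins and coloured bars mature microRNAs; the Mir126b hairpin lies wholly within Mir126a, while Mir143 and Mir145a are 1301 bases apart, and Carmn and Bvht run past the drawn window.

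The hairpins differ in length and folding. Mir126a is 73 nt long with 45.2% G and C, Mir126b 58 nt with 39.7%, Mir143 63 nt with 55.6% and Mir145a 70 nt with 48.6%. RNAfold gave a minimum free energy of -31.2 kcal/mol for Mir126a, -19.3 for Mir126b, -36.9 for Mir143 and -30.3 for Mir145a. Per nt, Mir143 had the most stable fold (-0.59 kcal/mol) and Mir126b the least (-0.33). None of the 4 shares a stretch of 20 nt on its own strand with another microRNA locus. Reads of these loci are thus not split between annotated microRNA copies, whereas 11 of the 22 other vascular-associated loci and 12 of the 15 neuron-enriched loci described below do share such a stretch.

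Reads counted to microRNA loci on the RNA strand numbered 2740332 in replicate 1 (35.4% of its reads) and 3207941 in replicate 2 (33.3%). Levels are normalised read counts (CPM), in reads per 1000000 of these. A count of 0 allows up to 3 reads, and so 1.09 CPM in replicate 1 or 0.935 CPM in replicate 2. Intervals and limits cover counting error only. The tissue label was set against lists of marker loci: neuron-enriched loci held 4.01 ± 0.714% of reads (SD, n = 2) and loci of striated muscle 0.00512 ± 0.00105%, with 5 of the 10 muscle loci at 0 in both libraries. These 5, the Mir1a and Mir133 loci, each share a stretch of 20 nt with another of them. Reads that map to several places are not counted, so the level of these loci is not known from these counts. Other vascular-associated loci held 3.83 ± 0.152% (SD, n = 2), so the neuron-enriched share does not by itself mark the tissue. The neuron-enriched Mir124a-1, Mir124a-2 and Mir124a-3 had 6, 5 and 0 reads in replicate 1 and 10, 12 and 7 in replicate 2. Named after their values were seen, they too share such a stretch with each other, so their level is uncertain. Of the 15 neuron-enriched loci, 11 were detected in the sense given next. Over the 389 loci with at least 10 reads in each library, called detected, the coefficient of variation between libraries beyond counting was 0.317 (edgeR common dispersion).

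Mir126a was the most abundant of the 4 loci in both libraries. It had 45876 reads in replicate 1 and 30124 in replicate 2, or 16741 CPM (exact Poisson 95% interval 16588 to 16895) and 9390.5 CPM (9285 to 9497). The mean was 13066 ± 5198 CPM (SD, n = 2), and the locus ranked 13 among all loci in replicate 1 and 25 in replicate 2. Replicate 1 was clearly the higher library, and the counting intervals did not overlap.

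Mir143 came next and was nearly level between the libraries in CPM. It had 11906 reads in replicate 1 and 12922 in replicate 2, or 4345 CPM (4267 to 4423) and 4028 CPM (3959 to 4098). Its mean was 4186 ± 224 CPM (SD, n = 2), with rank 41 in replicate 1 and 47 in replicate 2. Its SD was 5.35% of its mean, against 39.8% for Mir126a and a median of 18.6% over detected loci. These spreads depend on scaling by library totals. With the TMM scaling used below, Mir143 was 1.22-fold higher in replicate 1.

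Mir145a, the partner of Mir143, was far lower. It had 355 reads in replicate 1 and 603 in replicate 2, or 130 CPM (116 to 144) and 188 CPM (173 to 204). Its mean was 159 ± 41.3 CPM (SD, n = 2), with rank 194 in replicate 1 and 184 in replicate 2. Here replicate 2 was the higher library. For any 1 of these loci taken alone, the number of vascular cells and the amount of microRNA in each cannot be told apart in bulk tissue. The cause of the gap between Mir143 and Mir145a was not tested.

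Mir126b had 0 reads on its own strand in either library. It therefore lies below 1.09 CPM in replicate 1 and 0.935 CPM in replicate 2. Summed, the 4 loci took 2.12% of the reads counted to microRNA loci in replicate 1, against 1.36% in replicate 2 (1.74 ± 0.538%, SD, n = 2). Mir126a made up 78.9% of these reads in replicate 1 and 69.0% in replicate 2, Mir143 20.5% and 29.6%, and Mir145a 0.611% and 1.38%.

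**Figure D2:**
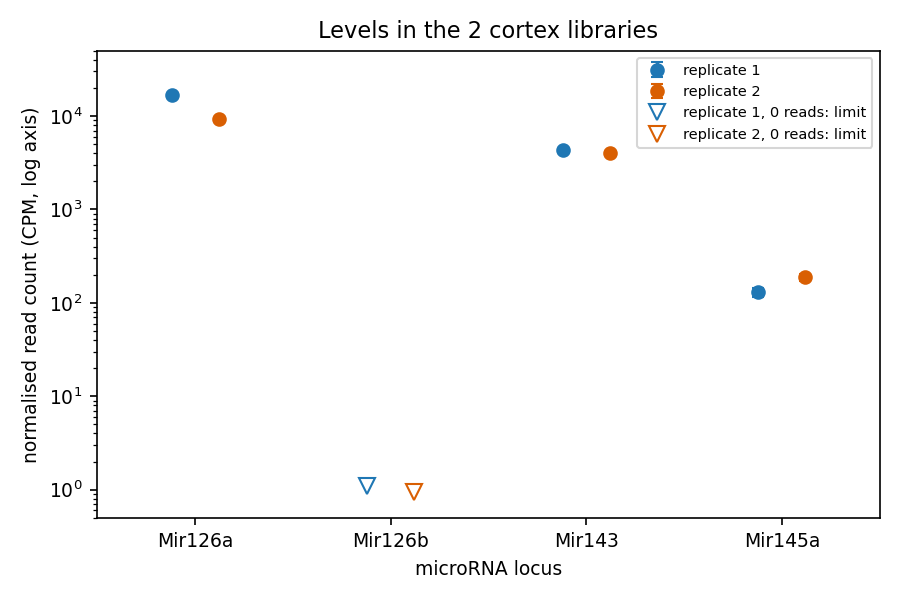
Normalised read count (CPM, log axis) of each locus in replicate 1 (blue) and replicate 2 (orange), with exact Poisson 95% intervals that are mostly smaller than the symbols. Open triangles mark the limit that 0 reads of Mir126b allow, 1.09 and 0.935 CPM; Mir126a stands highest in both libraries, then Mir143 (4345 and 4028 CPM), then Mir145a (130 and 188 CPM).

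The strand of the reads at the Mir126 locus was then described, since both hairpins could be processed. All reads lay on the Mir126a strand. The share on the Mir126b strand was 0 of 45876 in replicate 1, which allows up to 0.00654%, and 0 of 30124 in replicate 2, which allows up to 0.00996%. The opposite-strand column counts the same reads against the other strand, so it adds no separate evidence. It held 45873 and 30121 reads at Mir126b and 0 at Mir126a. Only 3 reads in each library were counted to Mir126a and not also opposite to Mir126b. Counts are per hairpin locus, so they do not show from which arm of the hairpin the Mir126a reads came.

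The column that ignores strand sets reads aside where loci overlap on opposite strands. It retained 3 reads of Mir126a in each library. The other 45873 reads were 24.1% of those it set aside as ambiguous for replicate 1, and the 30121 reads missing for replicate 2 were 13.9%. Mir143 and Mir145a overlap no other locus, and their counts in that column were identical to those on the RNA strand. They had 0 opposite-strand reads in either library, which for Mir143 allows up to 0.0252% and 0.0232% of its reads. Over all loci without an overlapping partner, opposite-strand reads were 0.00525% in replicate 1 and 0.00361% in replicate 2.

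Counts of 0 on the weaker strand were common. The files hold 32 pairs of microRNA loci on opposite strands, and in 26 of them the higher locus was detected. The lower locus had 0 reads in both libraries in 18 of these 26 pairs, Mir126b among them. Mir219b, another of the 18, shares a stretch of 20 nt with Mir219c, so its count of 0 may miss reads. How many of the others share such a stretch was not counted. The Mir126 pair was second of the 32 by level, after Mirlet7e with Gm25927. In 1 pair the lower locus was itself detected. This was Mir3074-1 opposite Mir24-1, named after its values were seen, with 29.4% of the pair's reads in replicate 1 and 19.5% in replicate 2. Mir24-1 shares a stretch of 20 nt with Mir24-2, so its reads that map to both are not counted and these shares are uncertain. Mir24-1 belongs to the Mir23b, Mir27b and Mir24-1 cluster, which is known from endothelium.

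Levels of the loci, which are read counts, were next compared within each library. How reads of different microRNAs relate to the number of their molecules was not measured. Mir126a exceeded Mir143 by 3.85-fold in reads in replicate 1 (exact 95% interval 3.78 to 3.93) and by 2.33-fold in replicate 2 (2.28 to 2.38). Per 100 nt of hairpin, the level ratio was 3.33 and 2.01. Both scales are given because a read of this size class is about as long as a mature microRNA, whatever the length of its hairpin. Mir126a exceeded Mir145a by 129-fold (116 to 144) in replicate 1 and by 49.96-fold (46.1 to 54.2) in replicate 2, or by 124 and 47.9 per hairpin length. Hairpin lengths differ too little for the second scale to change the order of the loci. This order, Mir126a, Mir143, Mir145a, Mir126b, was the same in both libraries. The size of the ratios was not: the ratio of Mir126a to Mir145a differed 2.59-fold between the libraries and that of Mir126a to Mir143 1.65-fold.

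Mir143 and Mir145a are known to be transcribed as 1 unit, and their reads were unequal. Mir143 had 33.5 reads for each read of Mir145a in replicate 1 (exact 95% interval 30.2 to 37.4) and 21.4 in replicate 2 (19.7 to 23.3). The mean ratio was 27.5 ± 8.56 (SD, n = 2), and per hairpin length the ratio was 37.3 and 23.8. The intervals did not overlap, and the ratio was 1.57-fold higher in replicate 1.

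Among 83 pairs of adjacent detected loci on 1 strand and at most 2000 bases apart, the level gap of higher over lower locus had a median of 2.63 on the log2 scale and ran between 0.11 and 7.80. The gap of Mir143 over Mir145a was 4.74 and ranked 17. In 34 of the pairs, 11 of the 16 with a larger gap among them, a locus shares a stretch of 20 nt with another microRNA locus, so that reads of it may be missing from the count. Among the other 49 pairs the median gap was 2.60, and Mir143 over Mir145a ranked 6. Its difference between the libraries, 0.65 in log2, ranked 29 of all 83 pairs, with a median absolute difference of 0.35, and 19 of the 49, with a median of 0.45. Loci of a cluster appear in more than 1 pair, so the pairs are not independent. The Mir322 and Mir503 pair, also vascular-associated, had a gap of 5.32, and the erythroid Mir451a and Mir144 pair one of 3.82. These comparison pairs were set up after the values of Mir143 and Mir145a were known.

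**Figure D3:**
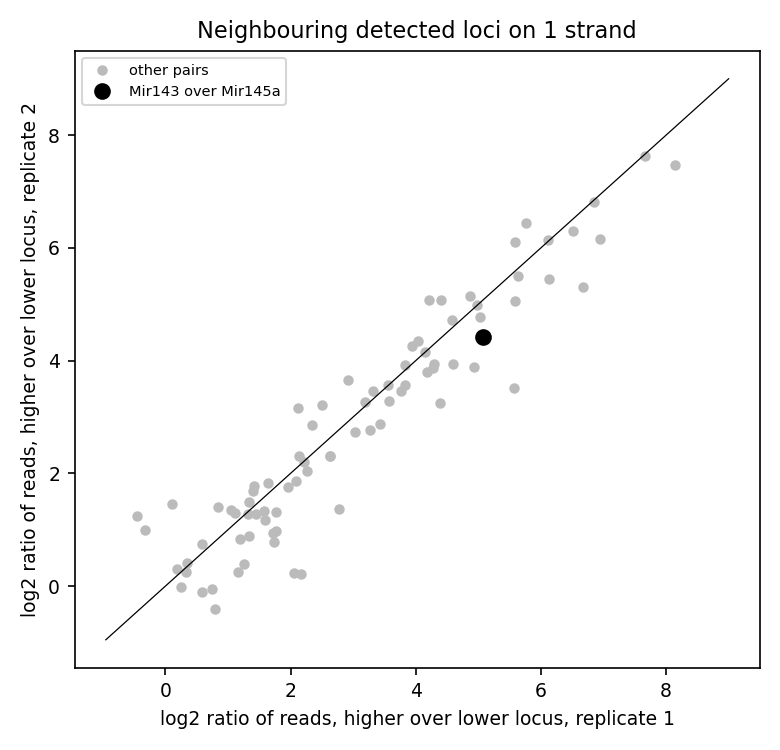
Log2 ratio of reads of the higher over the lower locus in 83 pairs of adjacent detected loci, in replicate 1 (x axis) and replicate 2 (y axis), with the line of equality. The pair of Mir143 and Mir145a (black) lies at 5.07 in replicate 1 and 4.42 in replicate 2, in the upper part of the range.

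Differences between the libraries were tested on reads scaled by the trimmed mean of M values (TMM), with a two-sided exact binomial test and Benjamini-Hochberg adjustment over the 389 detected loci. The test covers counting error only. All 3 detected loci differed, with Mir126a and Mir143 higher and Mir145a lower in replicate 1. Of all detected loci 58.4% differed, 29.6% being higher and 28.8% lower in replicate 1, so passing this test says little about these loci. When library totals alone were used for scaling, the split over all loci was 77 higher and 159 lower in replicate 1, against 115 and 112 with TMM, and the median log2 ratio was -0.16.

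Mir126a was 2.01-fold higher in replicate 1, a log2 ratio of 1.01 (exact binomial test, log10 of the adjusted p -1978). This ratio was larger than for most loci: 11.1% of detected loci, and 6 of the 50 most abundant, were at least as far apart. The median absolute log2 ratio was 0.40 over detected loci and 0.30 over those 50. Mir143 had a log2 ratio of 0.28 (exact binomial test, adjusted p = 2.74e-52), and 61.4% of detected loci were at least as far apart. Mir145a had a log2 ratio of -0.36 (exact binomial test, adjusted p = 0.000336), and 54.2% were at least as far apart. Mir143 and Mir145a thus stood opposite each other in direction, by amounts that most detected loci reached or passed. With library totals alone the log2 ratios were 0.83 for Mir126a, 0.11 for Mir143 and -0.54 for Mir145a, with the same signs.

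**Figure D4:**
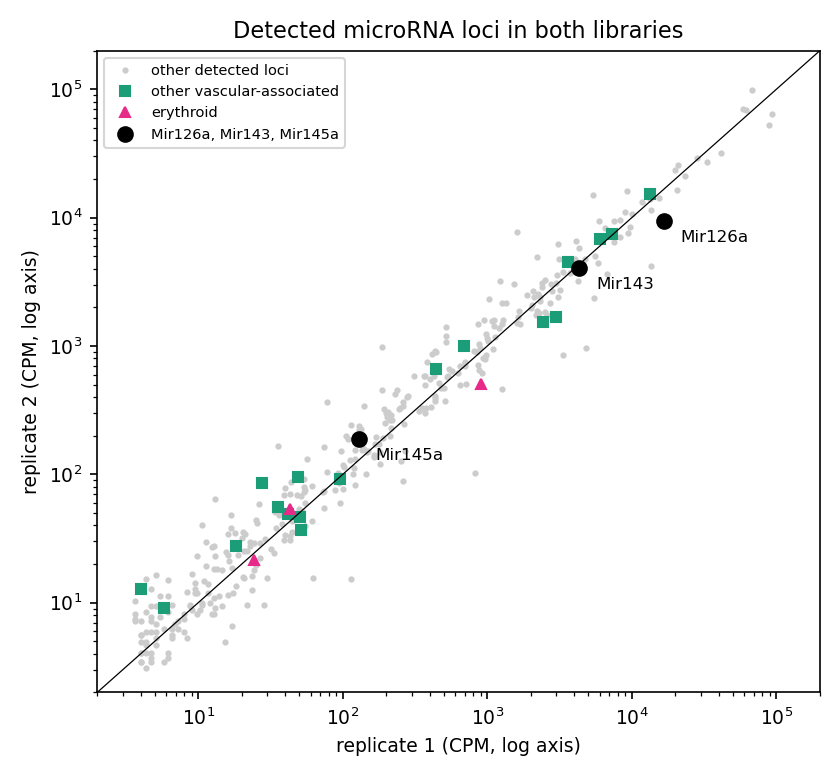
Normalised read count of 389 detected loci in replicate 1 (x axis) and replicate 2 (y axis), both log axes in CPM, with the line of equality. Mir126a (16741 against 9390.5 CPM) lies below the line, Mir143 close to it and Mir145a slightly above it.

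Markers of blood were set beside this difference, because vessels hold blood cells and miR-126 is also known from blood-forming cells. The erythroid list took 0.0976% of the reads of replicate 1 and 0.0585% of those of replicate 2. Mir451a, the main red cell microRNA, had 2489 reads (908 CPM) in replicate 1 and 1637 reads (510 CPM) in replicate 2, a log2 ratio of 1.00 (exact binomial test, adjusted p = 4.6e-108). This ratio was nearly that of Mir126a. Mir144, encoded 99 bases from Mir451a, had 119 and 172 reads and a log2 ratio of -0.13, and Mir486 had 67 and 69 reads and a ratio of 0.36, and neither passed the test. Of the 3 annotated erythroid loci, all detected, 1 was called higher in replicate 1, where 29.6% of all detected loci were. Leukocyte and microglial loci took 0.157% of the reads of replicate 1 and 0.190% of those of replicate 2, with 2 of 4 detected loci higher and 1 lower in replicate 1, beside 29.6% and 28.8% of all detected loci. Mir150, of lymphocytes, had a log2 ratio of -0.87 and Mir146 of 0.58. The part of blood cells in the Mir126a difference was not tested.

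Of 22 vascular-associated loci other than the 4 described here, 18 were detected. The list took 3.72% of reads in replicate 1 and 3.94% in replicate 2, from cells that a bulk library does not identify. By the exact binomial test 4 were higher in replicate 1, 7 were lower and 7 did not pass, where 29.6% of all detected loci were higher and 28.8% lower, with a median log2 ratio of -0.094, against 0.0098 over all detected loci. The Mir199a loci, known from mesenchymal cells, were at or near 0, with no read of Mir199a-1 in either library and 0 and 3 reads of Mir199a-2. They share sequence with each other and with Mir199b, and reads that map to several places are not counted. Mir145b had 0 reads in both libraries and shares no stretch of 20 nt with another locus. These 3 loci were named after their values were seen.

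The more abundant vascular-associated loci are given next. Mir23b, of an endothelium-enriched cluster, had 13380 CPM in replicate 1 and 15243 CPM in replicate 2, with a log2 ratio of -0.016 that did not pass the test. Its relative Mir23a had 5997 and 6784 CPM and did not pass either. Mir100, a relative of miR-99, had 7264 and 7411 CPM, a log2 ratio of 0.14. Mir130a, known from angiogenic endothelium, had 3639 and 4513 CPM, a ratio of -0.14. Mir27b, from the cluster of Mir23b, had 686 and 992 CPM, a ratio of -0.36.

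Mir221 was the vascular-associated locus whose ratio came closest to that of Mir126a. It had 2994 CPM in replicate 1 and 1690.5 CPM in replicate 2, a log2 ratio of 1.00. Its cluster partner Mir222 went the other way, with 440.1 and 659 CPM and a ratio of -0.41. Both microRNAs restrain the stem cell factor receptor Kit in endothelial cells. Mir322, the mouse counterpart of human miR-424, had 2426 and 1551 CPM and a ratio of 0.82. Mir221 and Mir222 thus differed in opposite directions, as did Mir143 and Mir145a. How many other neighbouring pairs did so was not counted.

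Lists of other cell types are read against the same shares, 29.6% higher and 28.8% lower over all detected loci. Neuron-enriched loci had 3 higher and 6 lower in replicate 1 of 11 detected, with a median log2 ratio of -0.27, and were led by Mir128-1 (5376 and 15159 CPM) and Mir132 (9788 and 8428 CPM). Of 3 detected oligodendrocyte loci, 2 were higher in replicate 1 and none lower, Mir219a-2 (3339 and 853 CPM) and Mir338 (923 and 613 CPM), with a median of 0.76 over the list. Striated muscle had 2 detected loci, Mir206 (28.8 and 31.2 CPM) and Mir499 (9.12 and 16.8 CPM), neither past the test. Mir23a, Mir23b, Mir27b, Mir128-1, Mir146, Mir219a-2 and Mir486 each share a stretch of 20 nt with another locus, so their levels and ratios are uncertain. The part of cell composition in the differences of Mir126a, Mir143 and Mir145a was not tested.

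**Figure D5:**
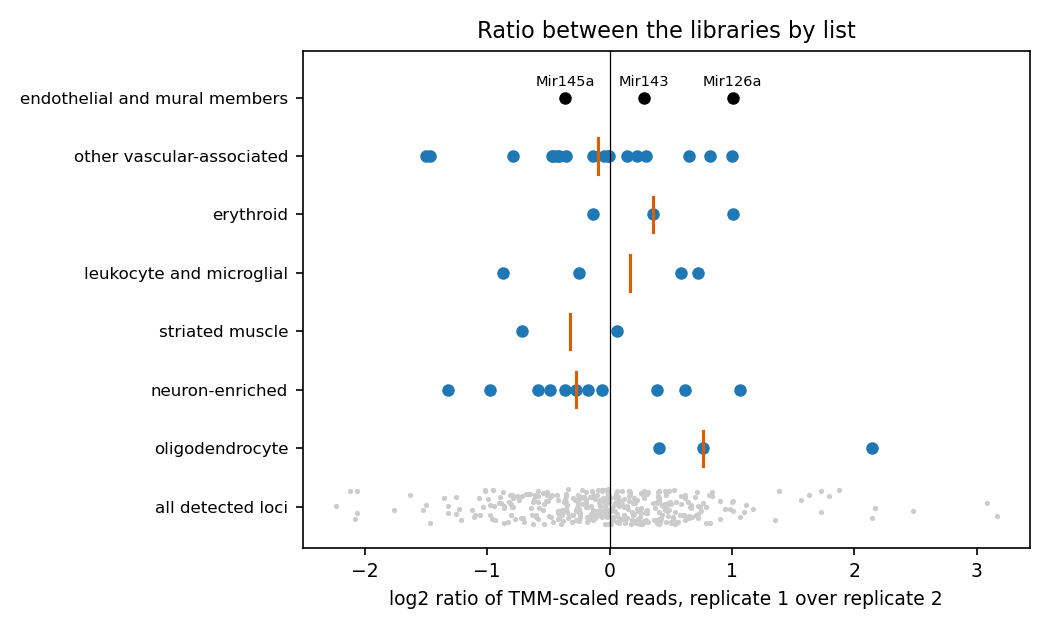
Log2 ratio of TMM-scaled reads, replicate 1 over replicate 2, for the detected loci of each list (points) with the list's median (orange bar, none for the 3 named loci) and all 389 detected loci in grey. Mir126a stands at 1.01, Mir143 at 0.28 and Mir145a at -0.36, and every list but oligodendrocyte has loci on both sides of 0.

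Loci nearest in level over both libraries were listed by Euclidean distance of log2(CPM + 1), over 2 libraries only. Nearest to Mir126a were Mir541 (distance 0.41), Mir652 (0.60) and Mir99b (0.67). Mir541 had 13630 and 11425 CPM, Mir652 15472 and 14168 CPM, and Mir99b 13380 and 14051 CPM. Each was below Mir126a in replicate 1 and above it in replicate 2, so the order was not resolved. Nearest to Mir143 were Mir383 (0.22), Mir30a (0.23) and Mir760 (0.24), with 3802, 3899 and 3761 CPM in replicate 1 and 3766, 4535 and 3699 CPM in replicate 2. Mir143 stood above Mir383 and Mir760 in both libraries, while its order with Mir30a turned over. Nearest to Mir145a were Mir410 (0.23), Mir7080 (0.25) and Mir664 (0.27). Mir410 had 131 and 221 CPM, Mir7080 109 and 189 CPM, and Mir664 140 and 159 CPM. The order of Mir145a with them was not resolved, since the level of each lay within the counting interval of Mir145a in at least 1 library.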

How the data were processed

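Each library has a deposited table of raw counts, whole reads per microRNA gene, which the authors made on mm10 with GENCODE M21, per the deposited file lists. Aligner, counter and trimming: not given in the sources used here. Of 3 unnamed count columns, the one on the RNA strand was used, its meaning being taken from the values. Rows that name no gene (64.6% of reads in replicate 1 and 66.7% in replicate 2, mostly reads that mapped to several places) were left out of library sizes. All 2202 identifiers matched GENCODE M21.

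Ratios used edgeR 4.0.16 TMM factors and exact binomial tests (scipy 1.17.1) at an adjusted p threshold of 0.05, and were checked on simulated counts. Those counts had no spread beyond counting, so the check does not cover the spread between these libraries. DESeq2 1.42.0 size factors were an alternative, and the others stand in the closing section. Intervals are exact Poisson or Clopper-Pearson at 95%. Limits for a count of 0 use the fixed 3 reads instead. Hairpins were folded with RNAfold 2.7.2. Named loci were the 4 loci, the 3 nearest in level to each detected one, the nearest microRNA loci in the genome, any sharing a seed, and the 2 highest of each list (8 of the vascular-associated). The loci and lists were chosen with earlier results of these data known.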

Additional observations from a re-analysis of the deposited data

How the results depend on the processing

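The results rest on the strand of the reads. In the column without strand, Mir126a had a level of 1.09 CPM and could not be tested between libraries, Mir143 had 4494 CPM, and the ratio to Mir143 was 0.000242 and to Mir145a 0.00671. The shares became 0.467% for the 4 loci, 4.10% for other vascular-associated, 0.00521% for erythroid and 1.67e-05% for oligodendrocyte loci. Per 1000000 of all reads, unmapped ones included, Mir126a had 4526, Mir143 1439.7 and Mir145a 54.2. Without its most abundant locus, a list held 0.435% (the 4 loci), 2.40% (vascular-associated), 0.00715% (erythroid), 0.0938% (leukocyte and microglial), 0.00212% (striated muscle), 2.98% (neuron-enriched) and 0.0780% (oligodendrocyte). These shifts follow from how each alternative is built.

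The log2 ratios kept their sign and stayed past the threshold in every alternative that gave one, between 0.83 and 1.01 for Mir126a, 0.11 and 0.29 for Mir143, and -0.54 and -0.36 for Mir145a. The count of loci that differ ran between 211 and 240, but out of unequal numbers tested: 211 of 283 (74.6%) with a minimum of 50 reads, 211 of 365 (57.8%) without strand, and 240 of 752 (31.9%) with no minimum. Counting pairs of neighbours within 10000 bases, gave a median gap of 2.62, and pairs that share no stretch with another locus one of 2.60; both were chosen after seeing the data. With 1 replicate left out, each level is that of the other library, given in the report. No paired analysis was possible because there is only 1 group. With 2 libraries of 1 group, depth limits Mir126b alone; for the others, the spread between libraries is wider than the counting intervals.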
